A study of Mus musculus with 8 samples.

Results

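The circadian clock genes described here are 10 named genes of the mouse molecular clock, taken by symbol from the 25929 genes of the FPKM table, a level scaled by transcript length and sequencing depth. They are Arntl, Clock, Npas2, Per1, Per2, Per3, Cry1, Nr1d1, Nr1d2 and Dbp, and all 10 were found once and reached 1 FPKM in at least 2 libraries, the filter that left 14442 genes for testing. RNA-sequencing covered 8 heart libraries, 2 independent samples in each of 4 groups. WT-Sham and WT-TAC hearts came from wild-type C57BL/6 mice, and Fat1-Sham and Fat1-TAC hearts from littermates that carried the fat-1 transgene, a Caenorhabditis elegans desaturase that converts n-6 into n-3 polyunsaturated fatty acids. Mice had transverse aortic constriction (TAC) at 3 months of age, a suture that narrows the aorta and loads the left ventricle with pressure for 8 weeks, or a sham operation that opened the chest without constriction. All were kept in a 12-h light-dark cycle. The hour at which each heart was collected is not given in the sources used here, so a difference in time of day and a difference between groups cannot be told apart. The labels name ventricular tissue and the methods name whole hearts. The promoter that drives the transgene is not given in the sources used here.

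The clock is a feedback loop that runs in nearly every cell, the heart muscle cell included. CLOCK or its relative NPAS2 pairs with BMAL1, the product of Arntl, and the pair binds E-box elements to switch on the Per and Cry genes, Nr1d1, Nr1d2 and Dbp. PER and CRY proteins return to the nucleus and block the pair, while the nuclear receptors REV-ERB alpha and beta, made from Nr1d1 and Nr1d2, repress Arntl, Npas2, Clock and Cry1 through RORE elements. DBP passes the rhythm on through D-box elements. Because of this wiring, mRNA of Arntl and Npas2 peaks at nearly the opposite time of day from that of Dbp, Nr1d1 and the Per genes in peripheral tissues, with Cry1 later than the other repressors.

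Libraries held 14163994 to 21218331 fragments, recovered from the values, and counting alone therefore limits only the weakest members, Arntl with 21 to 689 fragments and Npas2 with 19 to 110. Libraries of a group correlated over the tested genes at r = 0.98 in each group except WT-TAC, where r was 0.90 and 2560 genes differed by more than 2-fold between replicates. Cardiomyocyte markers were present in all libraries, with a summed level of 46536 to 61707 FPKM in 7 libraries and 25422 FPKM in WT-TAC1. In WT-TAC1, 4 of the 5 listed thymocyte markers, among them Dntt and Rag1, were found and summed to 803 FPKM, against at most 0.311 FPKM elsewhere, where Rag1 was at 0 in 6 of the other 7 libraries. All 6 airway epithelium markers were present in WT-TAC1 (sum 1505 FPKM), WT-TAC2 (3771 FPKM) and Fat1-Sham1 (48.5 FPKM), while the sum was at most 2.64 FPKM in the other libraries. Alveolar markers summed to 84.2 FPKM in WT-TAC1, 32.0 FPKM in Fat1-Sham1 and at most 0.552 FPKM in the others, and adipocyte markers from 6.20 FPKM in Fat1-TAC1 to 782 FPKM in WT-TAC2. Atrial markers summed to 1023 to 3801 FPKM in the 4 wild-type libraries and Fat1-Sham1 and to 25.8 to 52.7 FPKM in Fat1-Sham2, Fat1-TAC1 and Fat1-TAC2. The part of these other cell types in the clock gene values was not tested. In bulk tissue, fewer cells of a type and less RNA per cell cannot be told apart.

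The promoter windows of the members (RefSeq, GRCm38.p6, 250 bases before to 50 bases after an annotated start) were searched for the letters of the 3 clock elements. The table held 13 windows for 9 of the 10 members. Motifs were CACGTG for the E-box, TTATGTAA or TTACGTAA for the D-box, and AGGTCA for the core of the RORE, each on both strands, and none of these letter strings overlaps another in the windows. Of 32817 windows of all genes, 7.15% hold the E-box, 1.05% the D-box and 16.3% the RORE core. The E-box lies in a window of Per1 and in that of Cry1, the D-box lies in the window of Per3 at 2 places, and the RORE core lies in windows of Arntl, Clock, Per1 and Nr1d2. The windows of Npas2, Nr1d1 and Dbp hold none of these letters. Windows are shown for 5 of the 6 members with a match, from both arms of the loop, with capitals marking the matches. The window of Clock with a match and all windows without a match, that of Dbp among them, are not shown. A match describes letters in a window of this length and does not show that a protein binds there.
Per1, chr11:69098699-69098998, plus strand, E-box at 166 bases before the start and RORE core on the opposite strand at 137 bases before it: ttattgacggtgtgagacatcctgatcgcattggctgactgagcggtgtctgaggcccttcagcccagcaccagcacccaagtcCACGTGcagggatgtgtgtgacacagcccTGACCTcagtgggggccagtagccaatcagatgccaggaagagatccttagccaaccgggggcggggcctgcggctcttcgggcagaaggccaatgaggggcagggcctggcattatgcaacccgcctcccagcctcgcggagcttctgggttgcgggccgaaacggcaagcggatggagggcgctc
Cry1, chr10:85185005-85185304, minus strand, E-box at 60 bases before the start: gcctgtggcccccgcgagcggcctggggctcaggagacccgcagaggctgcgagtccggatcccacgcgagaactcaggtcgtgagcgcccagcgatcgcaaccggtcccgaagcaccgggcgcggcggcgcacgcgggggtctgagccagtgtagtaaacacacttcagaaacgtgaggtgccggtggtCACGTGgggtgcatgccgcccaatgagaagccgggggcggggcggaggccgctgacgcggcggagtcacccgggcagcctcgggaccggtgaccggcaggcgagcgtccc
Per3, chr4:151044616-151044915, minus strand, D-box at 205 and at 158 bases before the start: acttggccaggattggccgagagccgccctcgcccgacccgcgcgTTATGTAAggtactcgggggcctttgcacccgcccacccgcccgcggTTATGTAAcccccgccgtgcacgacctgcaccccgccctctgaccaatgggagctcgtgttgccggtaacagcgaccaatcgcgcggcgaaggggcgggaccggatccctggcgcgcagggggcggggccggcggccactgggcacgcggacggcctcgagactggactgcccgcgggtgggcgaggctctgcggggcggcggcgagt
Arntl, chr7:113207261-113207560, plus strand, RORE core at base 32 of the transcript: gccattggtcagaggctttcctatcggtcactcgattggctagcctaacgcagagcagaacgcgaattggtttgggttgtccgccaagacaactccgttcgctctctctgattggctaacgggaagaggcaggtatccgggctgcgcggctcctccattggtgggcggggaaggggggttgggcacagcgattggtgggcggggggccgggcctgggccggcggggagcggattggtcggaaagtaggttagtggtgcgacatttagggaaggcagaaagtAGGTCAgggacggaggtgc
Nr1d2, chr14:18239057-18239356, minus strand, RORE core at 77 bases before the start: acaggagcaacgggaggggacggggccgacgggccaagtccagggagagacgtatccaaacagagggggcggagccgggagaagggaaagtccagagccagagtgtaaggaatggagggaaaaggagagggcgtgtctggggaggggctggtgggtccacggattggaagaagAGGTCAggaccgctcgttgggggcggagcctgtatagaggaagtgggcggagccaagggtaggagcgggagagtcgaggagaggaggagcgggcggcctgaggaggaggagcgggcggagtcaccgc

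Among the activators, Arntl (chr7:113207465-113314126, plus strand, GRCm38) varied most. Its level was 3.58 and 1.96 FPKM in WT-Sham1 and WT-Sham2, 13.2 and 0.446 FPKM in WT-TAC1 and WT-TAC2, 6.58 and 7.23 FPKM in the Fat1-Sham libraries, and 0.979 and 0.546 FPKM in the Fat1-TAC libraries. The highest and the lowest library were thus the 2 replicates of WT-TAC, 29.7-fold apart, and WT-TAC1 is also the library with thymocyte markers. The SD between replicates, pooled over the groups on the log2(FPKM + 1) scale, was 1.20 (percentile 98.5 of the tested genes, whose median was 0.25). Npas2 (chr1:39193731-39363236, plus strand), which can take the place of Clock beside BMAL1, was low throughout and followed a similar order. It was measured at 1.14 and 0.926 FPKM in WT-Sham, 1.81 and 0.611 FPKM in WT-TAC, 2.63 and 3.25 FPKM in Fat1-Sham, and 0.711 and 0.923 FPKM in Fat1-TAC. Both Fat1-Sham libraries were above the other 6. Clock (chr5:76209868-76304792, minus strand) was the steadiest of the 3, at 11.7 and 9.999 FPKM in WT-Sham, 8.84 and 8.09 FPKM in WT-TAC, 13.6 and 13.7 FPKM in Fat1-Sham, and 8.56 and 8.24 FPKM in Fat1-TAC. All 4 TAC libraries were below all 4 sham libraries although the whole range was only 0.69 log2 units, because the pooled SD between replicates was 0.09 (percentile 4.66 of the tested genes).

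**Figure D1:**
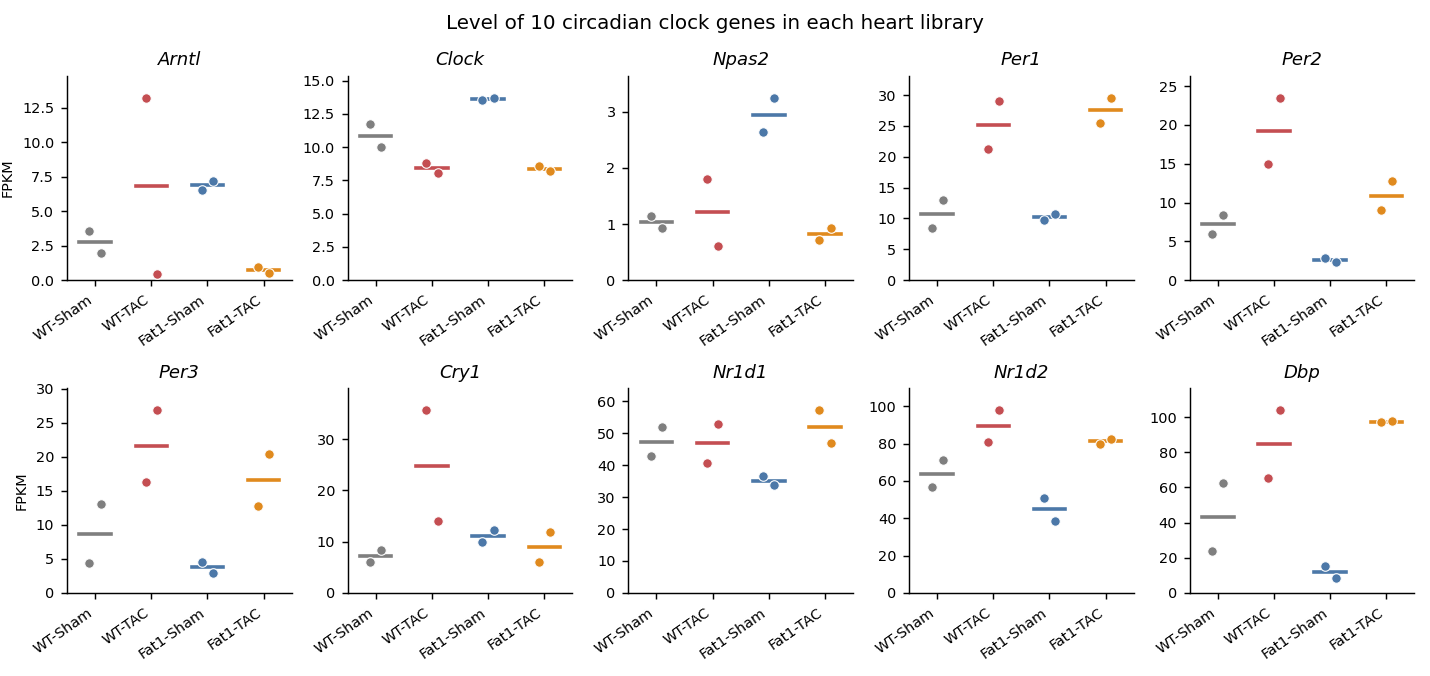
Each panel plots 1 clock gene, with the level in FPKM on a linear axis from 0, a point for each of the 2 libraries of a group and a bar at their mean. The WT-TAC points of Arntl lie at 13.2 and 0.446 FPKM, the widest split of any group for that gene, while Dbp lies at 8.66 to 15.4 FPKM in Fat1-Sham and at 97.0 and 97.8 FPKM in Fat1-TAC.

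The Per genes, which encode the repressors that enter the nucleus with CRY, had higher group means with TAC in both genotypes. Per1 (chr11:69095217-69109960, plus strand) was at 8.48 and 13.0 FPKM in WT-Sham, 21.2 and 29.0 FPKM in WT-TAC, 9.68 and 10.8 FPKM in Fat1-Sham, and 25.5 and 29.6 FPKM in Fat1-TAC. Per2 (chr1:91415982-91459324, minus strand) was at 5.96 and 8.46 FPKM in WT-Sham, 14.9 and 23.5 FPKM in WT-TAC, 2.84 and 2.31 FPKM in Fat1-Sham, and 9.04 and 12.7 FPKM in Fat1-TAC. For both genes the 4 TAC libraries lay above the 4 sham libraries. Per1 did not separate the sham groups, while Per2 was lower in both Fat1-Sham libraries than in both WT-Sham libraries. Per3 (chr4:151003652-151044665, minus strand) was at 4.36 and 13.0 FPKM in WT-Sham, 16.3 and 26.8 FPKM in WT-TAC, 4.56 and 2.93 FPKM in Fat1-Sham, and 12.8 and 20.5 FPKM in Fat1-TAC, and the only overlap was between WT-Sham2 and Fat1-TAC1. The WT-Sham replicates of Per3 were 2.99-fold apart. Cry1 (chr10:85131700-85185064, minus strand) did not follow the Per genes. It was at 5.97 and 8.43 FPKM in WT-Sham, 35.6 and 14.1 FPKM in WT-TAC, 9.95 and 12.2 FPKM in Fat1-Sham, and 6.09 and 11.8 FPKM in Fat1-TAC, and the 2 WT-TAC libraries were the highest, with WT-TAC1 at 2.53 times WT-TAC2.

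The nuclear receptor genes were the most even of the induced arm. Nr1d1 (chr11:98767932-98775333, minus strand) was at 42.9 and 51.8 FPKM in WT-Sham, 40.8 and 52.8 FPKM in WT-TAC, 36.7 and 33.7 FPKM in Fat1-Sham, and 57.2 and 46.9 FPKM in Fat1-TAC. The highest library was 1.70 times the lowest. Its exons share 263 bases, 8.55% of its exonic length, with Thra on the opposite strand (mean 72.3 FPKM), and since the counting is not stated to use strand, reads there could belong to either gene. Nr1d2 (chr14:18204054-18239127, minus strand) was at 56.6 and 71.3 FPKM in WT-Sham, 80.8 and 97.9 FPKM in WT-TAC, 50.7 and 38.7 FPKM in Fat1-Sham, and 79.8 and 82.7 FPKM in Fat1-TAC, with all TAC libraries above all sham libraries. Dbp (chr7:45705088-45710203, plus strand), the transcription factor that carries the rhythm to output genes, spanned 3.44 units of log2(FPKM + 1) over the libraries (percentile 97.2 of the tested genes). It was at 23.9 and 62.8 FPKM in WT-Sham, 65.3 and 104 FPKM in WT-TAC, 15.4 and 8.66 FPKM in Fat1-Sham, and 97.0 and 97.8 FPKM in Fat1-TAC. The TAC libraries were again all above the sham libraries, with WT-Sham2 at 62.8 FPKM next to WT-TAC1 at 65.3 FPKM. Sphk2 on the opposite strand shares 539 exonic bases with Dbp, 18.0% of its exonic length, at a mean of 8.34 FPKM.

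Over both genotypes, 5 of the 10 members had no overlap between the 4 TAC and the 4 sham libraries, against 9.28% of the 14442 tested genes. Per1, Per2, Nr1d2 and Dbp were higher with TAC and Clock was lower. Averaged over the genotypes, the log2 difference of TAC from sham was 2.02 (SE 0.33) for Dbp, 1.61 (SE 0.35) for Per3, 1.502 (SE 0.21) for Per2, 1.25 (SE 0.17) for Per1 and 0.67 (SE 0.14) for Nr1d2, the 5 members with an unadjusted p under 0.05 and a change over 1.5-fold in limma (background 8.13%). The median of all genes was 0.21 here. Scaling by the median of ratios brought it to -0.01 and left 1.76 for Dbp, 1.38 for Per3, 1.28 for Per2 and 1.01 for Per1, while Nr1d2, at 0.41 (0.55 under quantile normalization), was then under 1.5-fold. Log2 differences are of log2(FPKM + 1) throughout, which understates the change of the low genes Arntl and Npas2. None of the 10 passed a Benjamini-Hochberg adjusted p under 0.1 in limma, nor did any of the 14442 genes (0%), and the smallest adjusted p of a member was 0.137, for Per1 and Per2. Limma-voom on the recovered fragments also called 0 members and placed 6 past the unadjusted cutoffs. The adjusted result rested on single libraries. Without WT-TAC1, limma called 5 members, Per1, Per2, Nr1d2 and Dbp up and Arntl down by 1.76 (SE 0.20), beside 0.627% of the genes. Leaving out 1 library of a group makes the other stand alone, and it is then assumed to vary like the other groups. Without Fat1-TAC1, 1 member was called, Per2, beside 0.689% of the genes. Without WT-TAC2, 6 were called, but so were 25.5% of all genes.

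In fat-1 hearts the levels of Dbp and Arntl were far apart between the 2 surgeries. Mean Dbp was 12.03 ± 4.77 FPKM (SD, n = 2) in Fat1-Sham and 97.4 ± 0.533 FPKM (SD, n = 2) in Fat1-TAC, 8.09-fold higher, and mean Arntl was 6.90 ± 0.460 FPKM in Fat1-Sham and 0.763 ± 0.306 FPKM in Fat1-TAC, 9.06-fold lower. Per3 was 4.44-fold, Per2 4.23-fold, Per1 2.69-fold and Nr1d2 1.82-fold higher in Fat1-TAC, while Npas2 was 3.60-fold and Clock 1.62-fold lower. For 9 of the 10 members the 2 groups did not overlap (48.3% of the tested genes), the exception being Cry1. In limma with all 8 libraries, 8 of the 10 members passed the unadjusted cutoffs, against a background of 1.86%. The log2 differences ran from 2.97 (SE 0.46) for Dbp to -2.17 (SE 0.92) for Arntl. Nr1d1 had an unadjusted p of 0.0238 in limma at a change of 0.55 (SE 0.19), under 1.5-fold, and Cry1 differed by -0.33 (SE 0.46). After Benjamini-Hochberg adjustment in limma the p of every member was 1, so 0 were called, beside 1 gene of all (0.00692%).

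The adjusted outcome in fat-1 hearts depended on which libraries gave the error. With the 4 fat-1 libraries alone, limma called 84 of 13077 genes (0.642%), and 8 of the 10 members were among them. Per1, Per2, Per3, Nr1d2 and Dbp rose, and Arntl, Npas2 and Clock fell, with the smallest adjusted p of a member at 0.017 for Arntl and Dbp and the largest at 0.0975 for Clock. The differences themselves were the same as in the fit of all libraries, while the SE of Arntl was 0.17 in place of 0.92, since the WT-TAC replicates no longer entered it. With the WT-Sham libraries kept and both WT-TAC libraries left out, an alternative chosen after seeing the data, 8 members passed the unadjusted cutoffs and 0 were called in limma, at a smallest adjusted p of 0.113 for Arntl. Airway markers were at 48.5 FPKM in Fat1-Sham1 and at most 1.79 FPKM in the other 3 fat-1 libraries, and atrial markers at 1252 FPKM in Fat1-Sham1 and at most 52.7 FPKM in the other 3. The Fat1-TAC replicates differed too, with B and plasma cell markers at 7.41 and 330 FPKM and adipocyte markers at 6.20 and 291 FPKM. Their part was not tested.

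**Figure D2:**
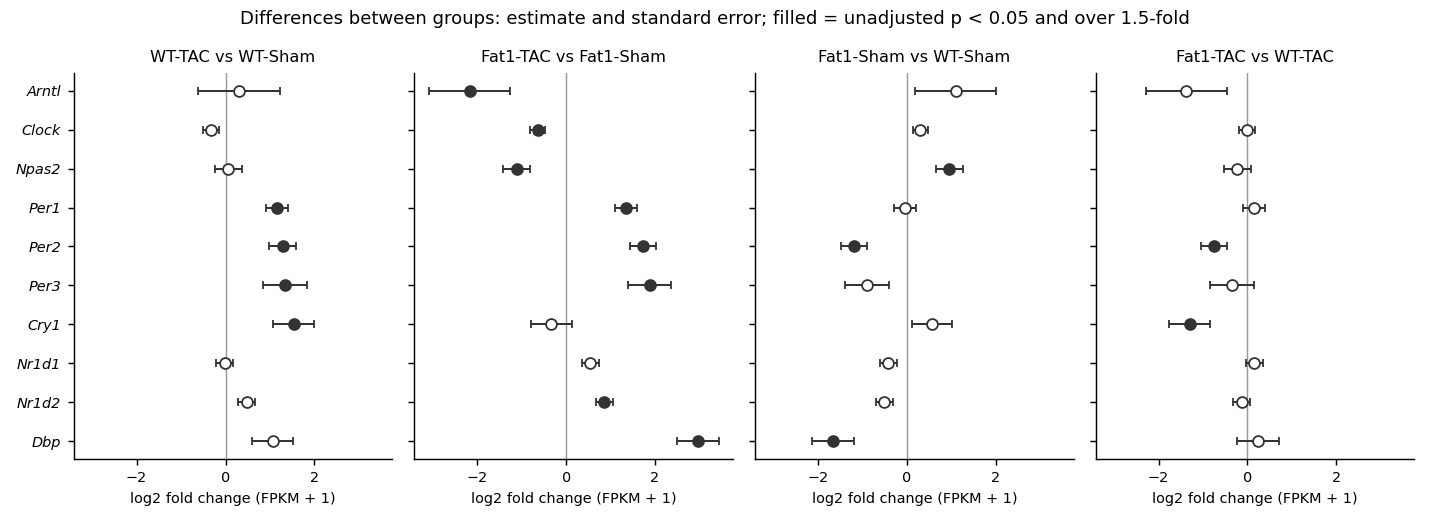
A panel for each of the 4 pairs of groups has on its horizontal axis the log2 difference of FPKM + 1 between 2 groups in the fit of all 8 libraries, with points for the 10 members and bars for the standard error, and filled points have an unadjusted p under 0.05 and a change over 1.5-fold. In Fat1-TAC against Fat1-Sham, 8 points are filled, 5 to the right and 3 to the left, with Dbp at 2.97 and Arntl at -2.17.

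In wild-type hearts, 4 of the 10 members passed the unadjusted cutoffs between WT-TAC and WT-Sham, against 23.8% of the tested genes. The groups did not overlap for 7 of the 10, against 59.6% of the genes. The members past the cutoffs were Cry1 (1.54, SE 0.46), Per3 (1.34, SE 0.49), Per2 (1.28, SE 0.29) and Per1 (1.16, SE 0.25), all higher with TAC. Dbp differed by 1.06 (SE 0.46) and Nr1d2 by 0.48 (SE 0.19), while Arntl differed by 0.30 (SE 0.92), with WT-TAC1 above and WT-TAC2 below both sham libraries. No member was called in limma after adjustment, where 0.935% of the genes were, and the adjusted p in limma ranged from 0.130 for Per1 to 0.941 for Nr1d1. Limma-voom called no member in any of the 7 comparisons. In this comparison the median of all tested genes was itself 0.39 above 0, and scaling by the median of ratios brought it to -0.01. Under that scaling the differences were 1.09 for Cry1, 0.90 for Per3, 0.85 for Per2 and 0.72 for Per1, and Per3 no longer passed the unadjusted cutoffs. Dbp went to 0.60, Nr1d2 to 0.01, Nr1d1 from -0.02 to -0.49 and Clock from -0.32 to -0.75, and the small differences of Arntl and Npas2 turned from 0.30 and 0.07 to -0.08 and -0.20. Without WT-TAC1 the difference of Arntl was -1.35. Single libraries moved the count. Without WT-TAC1, 7 members passed the unadjusted cutoffs, without WT-Sham1, 2 did, and without WT-TAC2, 4 were called beside 50.5% of all genes. The thymocyte markers of WT-TAC1 and the airway markers of both WT-TAC libraries stand beside these values, and their part was not tested.

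The sham groups, neither of which had a constriction, also differed in the clock genes. Mean Dbp was 43.4 ± 27.5 FPKM (SD, n = 2) in WT-Sham and 12.03 ± 4.77 FPKM in Fat1-Sham, mean Per2 was 7.21 ± 1.76 and 2.57 ± 0.373 FPKM, and mean Npas2 was 1.03 ± 0.153 and 2.94 ± 0.437 FPKM. These 3 members passed the unadjusted cutoffs in limma, at log2 differences of -1.66 (SE 0.46), -1.19 (SE 0.29) and 0.95 (SE 0.30), against a background of 0.893%. Arntl, Clock and Cry1 were also higher, and Nr1d1 and Nr1d2 lower, in both Fat1-Sham libraries than in both WT-Sham libraries, so that 8 of the 10 members did not overlap (32% of the tested genes). No member and no gene (0%) was called after adjustment in limma. The count of 3 went to 5 without WT-Sham1, to 1 without WT-Sham2 and to 1 without Fat1-Sham2. WT-Sham2 held 2.63 times as much Dbp and 2.99 times as much Per3 as WT-Sham1, and 0.547 times as much Arntl. This comparison shares the Fat1-Sham libraries with that of Fat1-TAC and Fat1-Sham. The values of the 2 comparisons are therefore not independent.

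Between Fat1-TAC and WT-TAC, 2 members passed the unadjusted cutoffs in limma, Cry1 (-1.30, SE 0.46) and Per2 (-0.75, SE 0.29), both lower in Fat1-TAC, where 25.2% of the tested genes passed. Arntl differed by -1.38 (SE 0.92), which turned to 0.28 without WT-TAC1. Dbp differed by 0.24 (SE 0.46), Per1 by 0.14 (SE 0.25) and Nr1d2 by -0.13 (SE 0.19), all less than the spread between replicates. No member was called, against 1.43% of the genes. The median of all genes was -0.40 here and -0.01 after scaling by the median of ratios, under which Per2 was at -0.31, no longer past the cutoffs, and Cry1 at -0.86, while Clock, Npas2, Per3 and Nr1d2 turned from -0.01, -0.23, -0.35 and -0.13 to 0.41, 0.02, 0.09 and 0.34. The count of 2 went to 1 without WT-TAC1, Fat1-Sham1 or Fat1-Sham2 and to 0 without Fat1-TAC1, and 3 members were called without WT-TAC2, beside 53.8% of all genes. Averaged over both surgeries, only Per2 passed the unadjusted cutoffs between fat-1 and wild-type hearts, at -0.97 (SE 0.21) against a background of 7.69%, and no member was called (0.0415% of the genes). That count of 1 went to 3 without WT-Sham1, WT-TAC1 or WT-TAC2 and to 2 without Fat1-Sham1, and without WT-TAC2 limma called 3 beside 25.6% of all genes. Under the median of ratios Per2 was at -0.74.

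Whether TAC acted differently on the clock genes in the 2 genotypes was asked by the interaction of genotype and surgery. The interaction passed the unadjusted cutoffs for 3 members, against 6.99% of the genes. It was 1.90 (SE 0.66) for Dbp, which was 1.95-fold higher with TAC in wild-type hearts and 8.09-fold higher in fat-1 hearts, -1.87 (SE 0.65) for Cry1, which was 3.45-fold higher with TAC in wild-type hearts and at 0.810 times the sham mean in fat-1 hearts, and -1.18 (SE 0.43) for Npas2. None was called after adjustment in limma, at an adjusted p of 0.495 for each of the 3, while 10 other genes were (0.0692%). For Per1, Per2 and Per3 the interaction was 0.18 (SE 0.35), 0.44 (SE 0.42) and 0.54 (SE 0.69). The median interaction of all genes was -0.37. After scaling by the median of ratios it was near 0, and the interaction was 0.59, 0.86 and 0.96 for the Per genes, 2.33 for Dbp, -1.47 for Cry1 and -0.98 for Npas2. The count of 3 went to 1 without WT-Sham1, WT-Sham2 or Fat1-TAC2, to 2 without WT-TAC1 and to 0 without Fat1-Sham2 or Fat1-TAC1, and without WT-TAC2, 5 members were called beside 45.8% of all genes.

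To place each library between the 2 arms of the loop, the mean log2(FPKM + 1) of Per1, Per2, Per3, Nr1d1, Nr1d2 and Dbp was subtracted from that of Arntl, Npas2, Clock and Cry1. A higher value of this clock contrast means more mRNA of the activator arm and of Cry1 relative to that of the Per, Nr1d and Dbp genes. It was -0.77 and -0.31 in the Fat1-Sham libraries, the 2 highest, and -3.15 and -3.17 in the Fat1-TAC libraries. WT-TAC2, at -3.49, was the lowest and lay next to the Fat1-TAC libraries, while WT-TAC1, at -1.61, lay next to WT-Sham1 at -1.63. WT-Sham2, at -2.49, was between WT-Sham1 and the Fat1-TAC libraries. The group means were -0.54 ± 0.33 (SD, n = 2) in Fat1-Sham, -2.06 ± 0.61 in WT-Sham, -2.55 ± 1.33 in WT-TAC and -3.16 ± 0.02 in Fat1-TAC. The difference of Fat1-TAC from Fat1-Sham was -2.62 and that of WT-TAC from WT-Sham -0.49, and leaving out WT-TAC2 turned the latter to 0.45, while leaving out WT-TAC1 gave -1.43. The log2 ratio of Arntl to Dbp, both as FPKM + 1, had the same lowest 3 and highest 2 libraries, from -0.23 in Fat1-Sham2 to -6.18 in WT-TAC2. WT-TAC1 and WT-Sham1 had near values of the contrast, but Arntl was at 13.2 and 3.58 FPKM and Dbp at 65.3 and 23.9 FPKM. With 2 libraries per group and no hour of collection, these values order the libraries by the balance of the 2 arms only. They cannot assign a clock time or a place in the cycle.

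**Figure D3:**
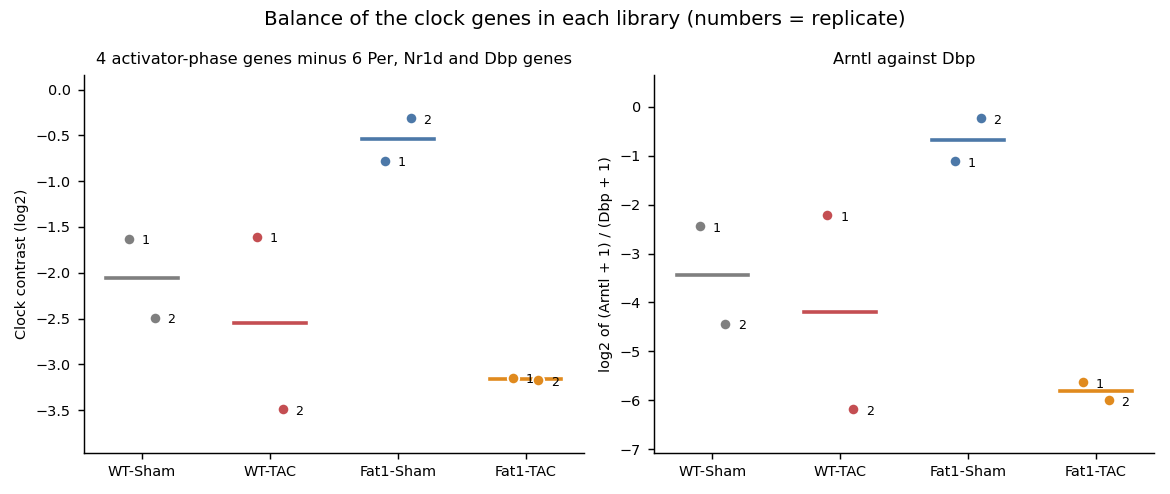
The left panel plots the clock contrast and the right panel the log2 ratio of Arntl to Dbp (FPKM + 1) in each library, both on log2 axes, with bars at group means and numbers for replicates. The Fat1-Sham libraries lie at -0.77 and -0.31 in the left panel, the Fat1-TAC libraries at -3.15 and -3.17, and the 2 WT-TAC libraries are apart at -1.61 and -3.49.

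Arntl ran against its repressor gene Nr1d1 over the 8 libraries. Pearson's r was -0.80 (two-sided exact permutation p = 0.0228, 0.0457 after Benjamini-Hochberg adjustment over the 2 relations computed) and the rank correlation, Spearman's rho, -0.81 (p = 0.0218 in an exact permutation test, adjusted 0.0368). Without the 2 libraries farthest from the median of Arntl, which were WT-TAC1 and WT-TAC2, r was -0.86 (exact permutation p = 0.0347). For Arntl and Dbp, r was -0.66 (exact permutation p = 0.0823, adjusted 0.0823) and rho -0.76 (exact permutation p = 0.0368, adjusted 0.0368). Without the same 2 libraries r was -0.98 (exact permutation p = 0.00417), and without WT-TAC1 alone it was -0.98. These permutations moved values among all libraries whatever their group, so differences between group means enter these p-values. The 2 libraries were left out by their level of Arntl, which is itself part of both relations. WT-TAC1 was the library with both high Arntl, 13.2 FPKM, and high Dbp, 65.3 FPKM. Leaving out single libraries kept r of Arntl and Nr1d1 between -0.88 and -0.76, but its adjusted exact permutation p was above 0.05, up to 0.101, in each case except that of WT-TAC1. Under the median of ratios r of Arntl and Nr1d1 was -0.74, but rho was -0.62 (exact permutation p = 0.115, adjusted 0.115). The correlation of deviations from the 4 group means, added after seeing the data, was -0.70 for Arntl and Nr1d1 (two-sided exact permutation p = 0.375 over swaps of replicates within groups) and -0.55 for Arntl and Dbp (p = 0.125 in the same exact test, the smallest it can give). With 16 swaps this exact test cannot give a p below 0.125 for either pair, so it cannot decide the relations within groups. The replicates of a group moved in opposite directions in all 4 groups for Arntl and Dbp. For Arntl and Nr1d1 they did so in 3 groups and moved together in 1. No sequencing batch is given in the labels.

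Further genes of the pathway followed the members in part. Of 11 clock output genes, 6 passed the unadjusted cutoffs between Fat1-TAC and Fat1-Sham (5 higher and 1 lower), against 1.86% of the tested genes. With the fat-1 libraries alone limma called 5 of them, Ciart, Hlf, Tef and Tspan4 up and Nfil3 down, beside 0.642% of the genes. The median log2 difference of the 11 was 0.55, beside 0.02 over all tested genes. Ciart, a repressor of the CLOCK and BMAL1 pair, had the widest range of the outputs. It was at 3.96 and 10.5 FPKM in WT-Sham, 13.6 and 20.6 FPKM in WT-TAC, 2.497 and 2.54 FPKM in Fat1-Sham, and 22.8 and 17.2 FPKM in Fat1-TAC. Hlf, a PAR bZIP factor like DBP, was 2.49-fold and Tspan4 2.08-fold higher in Fat1-TAC than in Fat1-Sham. Of 13 genes that modify the clock (paralogues, further repressors, kinases and ubiquitin ligases), 11 were tested, with a median of 0.08 between the fat-1 groups. Of these, 1 passed the unadjusted cutoffs there, Bhlhe41 (background 1.86%). Timeless was highest in WT-TAC1, at 20.2 FPKM against at most 10.4 FPKM. Among 7 glucocorticoid-induced genes, listed because steroid hormones also drive Per1, 6 were tested, with a median of -0.01 between the fat-1 groups. Of these, 1 passed the unadjusted cutoffs there, Cdkn1a, which was lower (background 1.86%). Fkbp5 was at 75.5 FPKM in WT-TAC1 and at most 17.8 FPKM elsewhere, and Zbtb16 ranged from 9.39 to 35.7 FPKM.

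**Figure D4:**
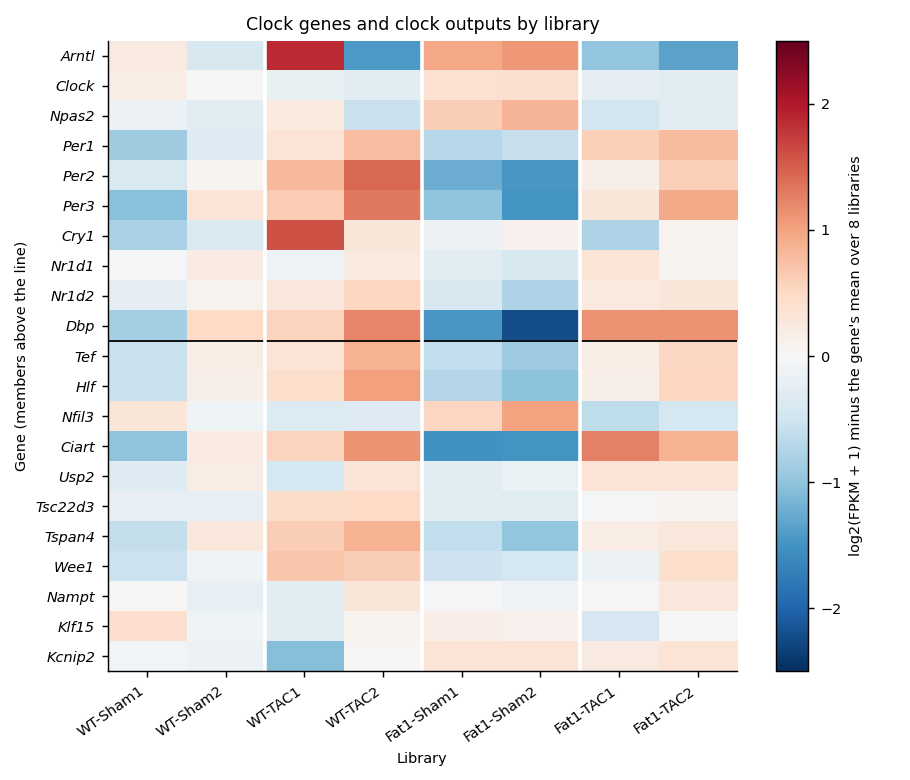
Colour gives log2(FPKM + 1) minus the mean of the gene over the 8 libraries, for the 10 members above the line and the 11 clock outputs below it, with libraries as columns. Dbp, Ciart and the Per genes are blue in Fat1-Sham and red in Fat1-TAC and WT-TAC2, Arntl and Nfil3 show the reverse there, and in WT-TAC1 Arntl, Cry1 and Dbp are all above their means.

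The genes most like Arntl over the 8 libraries, among 6629 genes whose mean reached 1 FPKM and whose levels spanned a range of at least 1 log2 unit, were Leo1 (r = 0.98), Abtb2 (0.91), Ypel2 (0.91), Msc (0.91) and Pvr (0.87), and the most opposite were D830024N08Rik (-0.93), Rnf207 (-0.90), Gm10435 (-0.89), Bcl6b (-0.89) and Papln (-0.88). Npas2 was the 14th most like Arntl, at r = 0.83. Only 4 genes reached r = 0.9 with Arntl, and 19 did without WT-TAC1, where 203 lay at -0.9 or below. With Dbp in place of Arntl, a choice made after its values were seen, further clock genes ranked near the top. Nr1d2 (r = 0.98), Ciart (0.97), Per3 (0.95), Tef (0.95), Bhlhe41 (0.95) and Hlf (0.94) were among the 10 genes most like Dbp, and Nfil3 (-0.98), which binds the same D-box letters as a repressor, Spon2 (-0.97), Cdkn1a (-0.96) and Npas2 (-0.87) were among the 5 most opposite. Cry2, Tspan4 and Per2 ranked 14th, 15th and 19th and Per1 39th. Without WT-TAC1, Nr1d2 and Ciart were still among the 10 genes most like Dbp. Per3 then ranked 41st, Tef 46th, Bhlhe41 52nd, Hlf 70th and Per1 376th, although their r hardly moved, at 0.95, 0.95, 0.95, 0.94 and 0.86. More genes reached r = 0.9 with Dbp, 174 in place of 21, and the range filter still used all 8 libraries. Arntl was the 3rd most opposite gene without WT-TAC1, at r = -0.98. These likenesses rest on 8 libraries that all genes share, so they are descriptions.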

How the data were processed

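The authors prepared libraries with the NEBNext Ultra RNA kit, mapped clean reads (the submitters' processing notes name HISAT2 and mm10/GRCm38; versions and counting program are not given in the sources used here), and deposited 1 FPKM value per gene and library. After removal of 4 blank lines the table listed 25929 genes, 25852 of them with a symbol from GENCODE M21, which also gave coordinates. For 100% of genes the deposited FPKM values were whole fragments at a single gene length, which gave the depths.

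Values were transformed as log2(FPKM + 1), genes with at least 1 FPKM in at least 2 libraries were kept, and limma 3.58.1 (R 4.3.3) was fitted with 4 group means and a trended prior over all 8 libraries, after tests on simulated data. A call needed a change over 1.5-fold and an adjusted p (Benjamini-Hochberg) under 0.1. An unadjusted p under 0.05 with 1.5-fold was counted as well. Correlations had exact permutation tests (Python 3, scipy). SE is limma's moderated one, and SD is between 2 libraries, so p-values measure the spread between these samples only.

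The members and lists were chosen with earlier results of these data known. Named genes were all 10 members, list genes that were called or had one of the 5 largest SDs or ranges, and the 5 genes most like and most unlike Arntl. Cdkn1a, Bhlhe41, Nfil3, Tef and the genes like Dbp were named after their values were seen. Alternatives were other scalings, filters, pseudocounts, fits and left-out libraries. Proteomic and other measurements were not analysed here, and some genes of the lists are not reported here.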

Additional observations from a re-analysis of the deposited data

Results flagged for a closer look

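The measurements below were picked out because both samples of a group lay on 1 side of the compared group in wild-type or sham hearts and on the opposite side in fat-1 or TAC hearts. The interaction of genotype and surgery in limma tested that difference, and its Benjamini-Hochberg adjusted p was 0.495 for each. The rule and the test used the same libraries, so the size and unadjusted p of these interactions are not independent of the choice. The share of all genes that meet the rule was not counted. Cry1 was higher in Fat1-Sham than in WT-Sham and lower in Fat1-TAC than in WT-TAC, with an interaction of -1.87 (SE 0.65, unadjusted p = 0.0229 in limma). Nfil3 had the same order, at -0.86 (SE 0.37). Csnk1e, which encodes a kinase of PER proteins, had that order and also opposite responses to TAC, higher in wild-type and lower in fat-1 hearts, at -0.78 (SE 0.39) for both. Its paralogue Csnk1d had opposite responses to TAC, at -0.85 (SE 0.41). In WT-TAC1 these kinases were at 64.6 and 106 FPKM, against at most 38.9 and 55.4 FPKM elsewhere, and thymocyte markers were high in the same library. Their part was not tested.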

How the results depend on the processing

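The 70 differences (10 genes in 7 comparisons) were recomputed under up to 18 settings, 1164 values in all. Of these, 44 turned in sign, none of them a difference that passed the unadjusted cutoffs in the fit of all libraries. The unadjusted cutoffs were newly passed in 38 values and no longer passed in 50 of 440. Under the median of ratios and quantile normalization, Arntl (-0.077 and -0.34) and Npas2 (-0.20 and -0.51) turned in WT-TAC against WT-Sham, Clock (0.41 and 0.52), Npas2 (0.019 and 0.32), Per3 (0.090 and 0.15) and Nr1d2 (0.34 and 0.14) in Fat1-TAC against WT-TAC, Arntl (0.056 and 0.17) and Nr1d1 (0.12 and 0.066) in the genotype average, and Clock (0.062 and 0.21) in the interaction. Arntl in WT-TAC against WT-Sham also turned with a pseudocount of 0.1 (-0.028) and in limma-voom (-0.0067). With single libraries left out, Arntl from -1.35 to 1.95, Npas2 from -0.33 to 0.47 and Nr1d1 from -0.20 to 0.16 ranged across 0 in WT-TAC against WT-Sham. In Fat1-TAC against Fat1-Sham, Cry1 from -0.76 to 0.096 did. In the sham groups, Per1 from -0.32 to 0.24 did. In Fat1-TAC against WT-TAC, Arntl from -3.03 to 0.28, Clock from -0.066 to 0.047, Npas2 from -0.63 to 0.17, Per1 from -0.076 to 0.36, Nr1d1 from -0.027 to 0.34, Nr1d2 from -0.27 to 0.0077 and Dbp from -0.093 to 0.57 did. In the genotype average, Arntl from -0.96 to 0.69 and Per1 from -0.088 to 0.19 did. In the interaction, Per1 from -0.10 to 0.46 and Per3 from -0.15 to 1.24 did.

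Among counts of clock genes past the unadjusted cutoffs, quantile normalization gave 2 for WT-TAC against WT-Sham, 0 for Fat1-TAC against WT-TAC and 2 for the genotype average. Fat1-TAC against WT-TAC gave 1 under scaling by the median of ratios and 0 with those groups alone. Limma called 8 in Fat1-TAC against Fat1-Sham with those groups alone, beside 0.642% of the genes, and 2 for the TAC average with no filter on low values. The cause was not tested. Leaving out single libraries gave 0 to 4 called and 2 to 7 unadjusted for WT-TAC against WT-Sham, 1 to 5 unadjusted for the sham groups, 0 to 3 called and 0 to 3 unadjusted for Fat1-TAC against WT-TAC, 0 to 6 called for the TAC average, 0 to 3 called and 1 to 3 unadjusted for the genotype average, and 0 to 5 called and 0 to 5 unadjusted for the interaction.

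The r of Arntl and Nr1d1 was -0.74 under the median of ratios, -0.77 under quantile normalization and -0.79 with a pseudocount of 0.1. With single libraries left out it was -0.88 to -0.76. That of Arntl and Dbp was -0.87 under the median of ratios, -0.85 under quantile normalization, -0.98 without the 2 farthest libraries and -0.98 to -0.59 with single libraries left out. The clock contrast of WT-TAC minus WT-Sham went from -1.43 to 0.45 in the same way. The differences between replicates correlated over genes at -0.14 to 0.02 between groups. These values show no pairing by replicate number, but they cannot tell whether samples shared a day or batch. With replicate number as a block, the unadjusted counts for TAC against sham stayed at 4 in wild-type and 8 in fat-1 hearts. Called counts stayed at 0 in every comparison. A mean of at least 5 FPKM left 8 of the 10 members. Depth limits Arntl and Npas2, which fell to 21 and 19 fragments. With 2 libraries a group, exact permutation between groups cannot go below p = 0.333.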
